A study of Mus musculus with 9 samples.

Results

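The AP-1 family was followed by RNA-seq in mouse granulosa cells, the somatic cells that line the ovarian follicle and surround the oocyte, during gonadotropin-induced ovulation. The 8 genes described are *Fos*, *Fosb*, *Fosl1*, *Fosl2*, *Jun*, *Junb*, *Jund* and *Atf3*, taken by symbol from 25059 gene identifiers in the tables. The cells came from ovaries of Kunming mice at postnatal day 21, and the labels name no genotype. All 3 groups had first been given PMSG, a serum gonadotropin of the pregnant mare that makes follicles grow, at 5 IU for 48 h. The 0 h group was taken at that point, and the 1 h and 6 h groups were taken 1 h and 6 h after 5 IU of HCG, the human chorionic hormone that stands in for the luteinising hormone surge. Each group had 3 libraries, 9 in all. The labels do not say whether the libraries of a group came from separate animals or pools, so the p-values reflect library-to-library spread that may be no more than technical. With no later group lacking HCG among those analysed here, the effects of HCG and of the hour of collection cannot be told apart.

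AP-1 is a transcription factor dimer. Its subunits share a basic region that contacts DNA and a leucine zipper that joins them; Jun proteins pair with each other or with Fos proteins, whereas Fos proteins need a Jun partner. Several of the genes belong to the immediate-early class, which is transcribed within minutes of a stimulus through factors already present in the cell. The messenger RNAs of that class are short-lived. In rat granulosa cells, *Fosl2* (encoding FRA2) and *Jund* have been described as the subunits that remain as the cells luteinise. ATF3 is a basic-zipper factor induced by stress and cyclic AMP that can pair with Jun proteins.

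The values are FPKM, fragment numbers scaled to transcript length and library size, so levels of different genes can be compared per length. The depth in reads is unknown from such values. Sums of FPKM were 491920 to 495500 in the 0 h libraries, 527034 to 570986 in the 1 h libraries and 513434 to 539279 in the 6 h libraries, and 1 h replicate 2 had the lowest sum of its group. The granulosa label was checked against 10 markers, all of which were tested: their summed FPKM was 7843 to 8388 at 0 h, 7755 to 11590 at 1 h and 3314 to 3632 at 6 h, led by the inhibin subunit gene *Inha*. Summed markers of other cells were lower. Over the 9 libraries the sums were 111 to 421 FPKM for 8 theca and stroma genes, 38.1 to 98.6 for 7 oocyte genes and 15.4 to 28.7 for 6 endothelial genes. They were 10.3 to 22.1 for 7 leukocyte genes, 69.5 to 204 for 5 erythroid genes and 15.1 to 24.2 for 6 surface epithelium genes. Gene by gene, the lists overlapped. At 0 h *Inha* averaged 5413 FPKM, but *Foxl2* 90.2 and *Fshr* 93.0, against 123 for the theca gene *Cyp17a1* and 83.3 for the erythroid gene *Hba-a1*. *Ptprc*, *Adgre1* and *Cd3e* of the leukocyte markers, *Vwf* of the endothelial markers, *Hba-a2* and *Upk1b* averaged under 1 FPKM over the 9 libraries, and no marker in any list was at 0 in all of them. In such bulk samples, fewer cells of a type and less RNA per cell cannot be told apart.

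The bases just before the transcription starts are shown for the 5 members that held a searched motif. The sequences are from RefSeq on GRCm38.p6 (mm10), 140 bases up to the last base before the annotated start, 5′ to 3′ on the strand of the gene; capitals mark TGACG, the core of the cyclic AMP response element, on either strand (CGTCA where it lies on the other strand), and in *Jun* the letters TGACATCA, a site known to bind AP-1 itself.
Fos, chr12:85473750-85473889, plus strand: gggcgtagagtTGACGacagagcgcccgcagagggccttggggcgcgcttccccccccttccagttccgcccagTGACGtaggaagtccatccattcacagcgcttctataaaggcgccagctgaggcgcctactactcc
Fosb, chr7:19310046-19310185, minus strand: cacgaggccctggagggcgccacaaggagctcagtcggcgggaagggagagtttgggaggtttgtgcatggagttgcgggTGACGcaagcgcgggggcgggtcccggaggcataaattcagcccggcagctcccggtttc
Junb, chr8:84978749-84978888, minus strand: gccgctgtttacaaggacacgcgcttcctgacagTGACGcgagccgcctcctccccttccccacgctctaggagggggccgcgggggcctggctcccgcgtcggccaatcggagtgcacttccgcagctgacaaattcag
Atf3, chr1:191183334-191183473, minus strand: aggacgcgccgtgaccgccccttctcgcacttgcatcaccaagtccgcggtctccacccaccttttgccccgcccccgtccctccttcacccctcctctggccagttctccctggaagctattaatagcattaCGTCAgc
Jun, chr4:95052223-95052362, minus strand: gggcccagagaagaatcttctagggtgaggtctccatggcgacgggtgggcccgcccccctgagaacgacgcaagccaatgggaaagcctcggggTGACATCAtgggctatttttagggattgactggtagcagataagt

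Over the 250 bases before the start, 4 of the 7 members with an entry held TGACG: *Fos* at 129 to 125 and at 66 to 62 bases upstream, *Fosb* at 60 to 56, *Junb* at 106 to 102 and *Atf3* at 7 to 3. Of all 32851 windows of that length, 17.8% held it, a share not matched for base content. The 8 letters TGACATCA lay 45 to 38 bases upstream of *Jun* and in 2.93% of all windows; this motif was added after the sequences had been read. The full palindrome TGACGTCA (1.55% of all windows), the AP-1 site TGANTCA (6.75%) and the CArG box that serum response factor binds (1.47%) were in 0 of the 7 windows. *Fosl2* and *Jund*, which also rose at 1 h, held none of the searched motifs in their windows. All motifs were searched on both strands, and TGACG is contained in TGACGTCA. A match is a run of letters and no proof of binding, and no match says only that the letters are not in this window. The RefSeq start stood within 30 bases of the GENCODE gene end for *Fos*, *Fosb*, *Jun* and *Junb*. It lay 34706 bases inside the longer GENCODE model of *Atf3*, 671 bases inside that of *Fosl2* and 1210 bases upstream of that of *Jund*, so those windows may not be the starts in use. *Fosl1* is named only.

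At 1 h, 7 of the 8 members were higher than at 0 h and 0 were lower by limma (0 at an unadjusted p below 0.05), while of all 14535 tested genes 15.7% were called, 9.68% higher and 5.98% lower. The median log2 change was 0.97 for the members and −0.0046 for all tested genes. *Junb* rose most, followed by *Fosl2*, *Atf3*, *Fosb*, *Jun*, *Fos* and *Jund*, and *Fosl1* did not pass the test. In FPKM, the ratio of the mean at 1 h to the mean at 0 h was 7.45 for *Junb*, 3.20 for *Fosl2*, 2.50 for *Atf3*, 2.02 for *Fosb*, 1.90 for *Jun*, 1.59 for *Fos* and 1.45 for *Jund*. In those 7 genes every 1 h library lay above every 0 h library, against 18.3% of all tested genes, and 0 members lay without overlap below, against 17.2%.

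At 6 h, 6 of the 8 were lower than at 1 h (26.9% of tested genes were called lower), *Fosl1* alone of the 8 was higher (26.7% called higher, 53.5% called in all) and *Jund* did not pass. In the same 6 genes the groups did not overlap (30% of tested genes lay lower without overlap), nor in *Fosl1* (30.5% higher). Against 0 h, 4 members were higher at 6 h (28.8% called higher) and 0 were lower by limma (0 at an unadjusted p below 0.05; 27.9% called lower and 56.6% called in all). Those 4 were *Fosl1*, *Junb*, *Jund* and *Jun*; *Fos*, *Fosb*, *Fosl2* and *Atf3* did not pass. The 6 h and 0 h libraries of the 4 did not overlap, as in 32.9% of tested genes, and 0 members lay below without overlap, against 32.1%. *Fosl1* passed the filter on low values only through its 6 h libraries; without it, 3 of 7 members were called higher than at 0 h, and 6 of 7 lower than at 1 h. The median log2 change of all 8 was −0.75 for 6 h against 1 h and 0.28 for 6 h against 0 h, and −0.78 and 0.23 without *Fosl1*. The 1 h against 0 h and 6 h against 0 h comparisons share the 0 h libraries, and each also shares libraries with 6 h against 1 h.

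**Figure D1:**
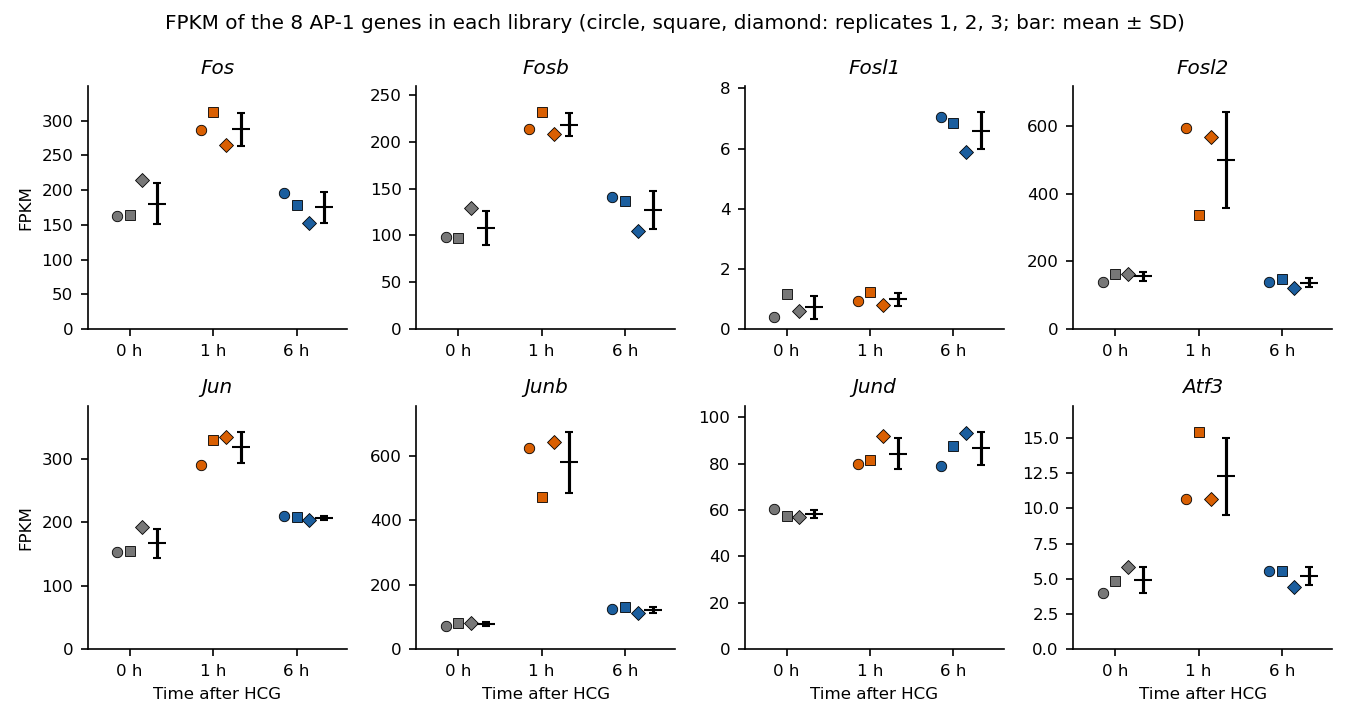
FPKM of each of the 8 genes (vertical axis, from 0, with its own scale per gene) in each library at 0, 1 and 6 h after HCG; circles, squares and diamonds are replicates 1, 2 and 3, and the bar beside them is the mean ± SD (n = 3). Most members stand highest at 1 h, *Fosl1* stands highest at 6 h, at 5.90 to 7.04 FPKM, and *Jund* overlaps between 1 h and 6 h.

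Among the Fos genes, *Fos* itself (ENSMUSG00000021250, chromosome 12, 85473890 to 85477273, mm10) encodes the prototype of the family. It measured 163, 164 and 215 FPKM in the 0 h libraries, 287, 312 and 265 at 1 h, and 196, 178 and 152 at 6 h. All 1 h libraries were above all others, and 6 h overlapped 0 h. Its level ranked 309 of 14535 tested genes at 0 h, before any HCG. The log2 change, on the log2(FPKM + 1) scale used throughout, was 0.68 ± 0.13 (SE) for 1 h against 0 h (limma adjusted p = 0.00651). That call ended under quantile normalization (0.41, adjusted p = 0.117). The change was −0.71 ± 0.13 for 6 h against 1 h (adjusted p = 0.00108) and −0.04 ± 0.13 for 6 h against 0 h (adjusted p = 0.825).

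*Fosb* (ENSMUSG00000003545, chromosome 7, 19302696 to 19310051) encodes a Fos protein that also has a short form, which the tables, with 1 row for the gene, do not separate. It measured 98.5, 96.8 and 129 FPKM in the 0 h libraries, 214, 232 and 209 at 1 h, and 141, 137 and 104 at 6 h. The 1 h libraries were again above all others, while 6 h and 0 h overlapped. *Fosb* rose at 1 h by 1.02 ± 0.13 (adjusted p = 0.000861) and was lower at 6 h than at 1 h (−0.78 ± 0.13, adjusted p = 0.000867). For 6 h against 0 h the change was 0.23 ± 0.13 (adjusted p = 0.165), and it was called higher without 0 h replicate 3 (0.37, adjusted p = 0.0338) or without 6 h replicate 3 (0.37, adjusted p = 0.0308).

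*Fosl2* (ENSMUSG00000029135, chromosome 5, 32135801 to 32157842), which encodes FRA2, a Fos protein without a strong activation domain, measured 140.05, 164.5 and 164.4 FPKM at 0 h. At 1 h it measured 594, 337 and 567 FPKM, with replicate 2 well below the other libraries, and at 6 h 141, 149 and 123. Even the lowest 1 h library was above every library of 0 h and 6 h. *Fosl2* rose by 1.63 ± 0.19 at 1 h (adjusted p = 0.000398), and by 1.89 without 1 h replicate 2. It was lower at 6 h than at 1 h by a log2 change of −1.81 ± 0.19 (adjusted p = 3.78e-05), rank 203 from the lowest of the 14535 tested genes. Its 6 h and 0 h libraries overlapped, with a change of −0.18 ± 0.19 (adjusted p = 0.432).

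*Fosl1* (ENSMUSG00000024912, chromosome 19, 5447547 to 5455946) encodes FRA1, which in other cell types is itself a target of AP-1. Its course differed from that of the other Fos genes. It measured 0.409, 1.16 and 0.605 FPKM in the 0 h libraries, 0.949, 1.22 and 0.805 at 1 h, and 7.04, 6.86 and 5.90 at 6 h. The 6 h libraries were above all others, and 1 h and 0 h overlapped. The mean at 6 h was 9.11 times that at 0 h and 6.65 times that at 1 h. *Fosl1* rose by 2.16 ± 0.17 for 6 h against 0 h (adjusted p = 4.29e-06) and by 1.93 ± 0.17 for 6 h against 1 h (adjusted p = 1.09e-05), while 1 h against 0 h gave 0.23 ± 0.17 (adjusted p = 0.408). With a pseudocount of 0.1 FPKM in place of 1 FPKM, the change for 6 h against 0 h was 3.12. *Fosl1* passed the filter of 1 FPKM in at least 3 libraries only through its 6 h libraries, so that a difference at 6 h was built into its being tested. Its 3′ part overlaps *Ccdc85b* on the opposite strand, which averaged 6.23 ± 0.275 FPKM (SD, n = 3) in the 0 h group, 6.18 ± 1.47 in the 1 h group and 6.08 ± 1.84 in the 6 h group.

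Among the Jun genes, *Jun* (ENSMUSG00000052684, chromosome 4, 95049034 to 95052222) encodes c-Jun, the main activating partner of Fos proteins. It measured 154, 154 and 193 FPKM in the 0 h libraries, 290.0, 331 and 334 at 1 h, and 211, 208 and 204 at 6 h. The 3 times did not overlap: 1 h was highest, 6 h lay between, and 0 h was lowest. *Jun* rose by 0.93 ± 0.10 at 1 h (adjusted p = 0.000191) and was lower at 6 h than at 1 h (−0.61 ± 0.10, adjusted p = 0.000523). Relative to 0 h, *Jun* at 6 h rose by 0.32 ± 0.10 (adjusted p = 0.0174). That call ended with FPKM scaled to a common sum (0.23, adjusted p = 0.0799), under quantile normalization (0.19, adjusted p = 0.17), without 0 h replicate 1 (adjusted p = 0.0676) and without 0 h replicate 2 (adjusted p = 0.0685).

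*Junb* (ENSMUSG00000052837, chromosome 8, 84974484 to 84978718), whose product activates transcription more weakly than c-Jun and can oppose it, had the largest log2 change of the 8 at 1 h. It measured 71.6, 80.5 and 81.0 FPKM in the 0 h libraries, 623, 471 and 643 at 1 h, and 124, 130.3 and 112 at 6 h. No times overlapped, and the 6 h libraries stayed above the 0 h libraries. *Junb* rose by 2.87 ± 0.12 at 1 h (adjusted p = 5.05e-07), rank 42 from the highest of the 14535 tested genes. Between 1 h and 6 h the change was −2.23 ± 0.12 (adjusted p = 5.58e-07), rank 99 from the lowest. Its change for 6 h against 0 h was 0.64 ± 0.12 (adjusted p = 0.00119). The 3′ end of *Junb* overlaps that of the peroxiredoxin gene *Prdx2* on the opposite strand, which averaged 192 ± 20.4 FPKM (SD, n = 3) in the 0 h group, 260.4 ± 13.8 in the 1 h group and 278 ± 19.2 in the 6 h group. *Prdx2* itself rose by 0.44 at 1 h (adjusted p = 0.0102) and by 0.54 for 6 h against 0 h (adjusted p = 0.000704), and its part in the *Junb* values was not tested.

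*Jund* (ENSMUSG00000071076, chromosome 8, 70698949 to 70700616) encodes the Jun protein usually present in resting cells. It measured 60.3, 57.2 and 57.1 FPKM in the 0 h libraries, 79.6, 81.4 and 92.1 at 1 h, and 78.9, 87.7 and 93.1 at 6 h. The 1 h and 6 h libraries overlapped each other and were all above 0 h. *Jund* rose by 0.53 ± 0.08 at 1 h (adjusted p = 0.00196) and by 0.56 ± 0.08 for 6 h against 0 h (adjusted p = 0.000218), with 0.04 ± 0.08 for 6 h against 1 h (adjusted p = 0.726). The antisense locus *Gm11175* lies wholly within *Jund* and stood above it, at 123, 124 and 83.4 FPKM at 0 h, 108, 149.8 and 141 at 1 h, and 159.8, 253 and 246 at 6 h. Since the sources used here do not say whether strand was kept, reads of the 2 loci may not have been separated, and the part of *Gm11175* in the *Jund* values was not tested. Its own log2 change was 0.28 ± 0.21 for 1 h against 0 h (adjusted p = 0.422) and 0.98 ± 0.21 for 6 h against 0 h (adjusted p = 0.00291).

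*Atf3* (ENSMUSG00000026628, chromosome 1, 191170296 to 191218039) was far less abundant than the Fos and Jun genes other than *Fosl1*. The sum of its 2 rows was 4.02, 4.84 and 5.86 FPKM at 0 h, 10.7, 15.4 and 10.7 at 1 h, and 5.55, 5.56 and 4.43 at 6 h. Every 1 h library was above all others, and 6 h and 0 h overlapped. *Atf3* rose by 1.16 ± 0.16 at 1 h (adjusted p = 0.00131), was lower at 6 h than at 1 h (−1.09 ± 0.16, adjusted p = 0.00039), and had a log2 change of 0.07 ± 0.16 for 6 h against 0 h (adjusted p = 0.734).

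**Figure D2:**
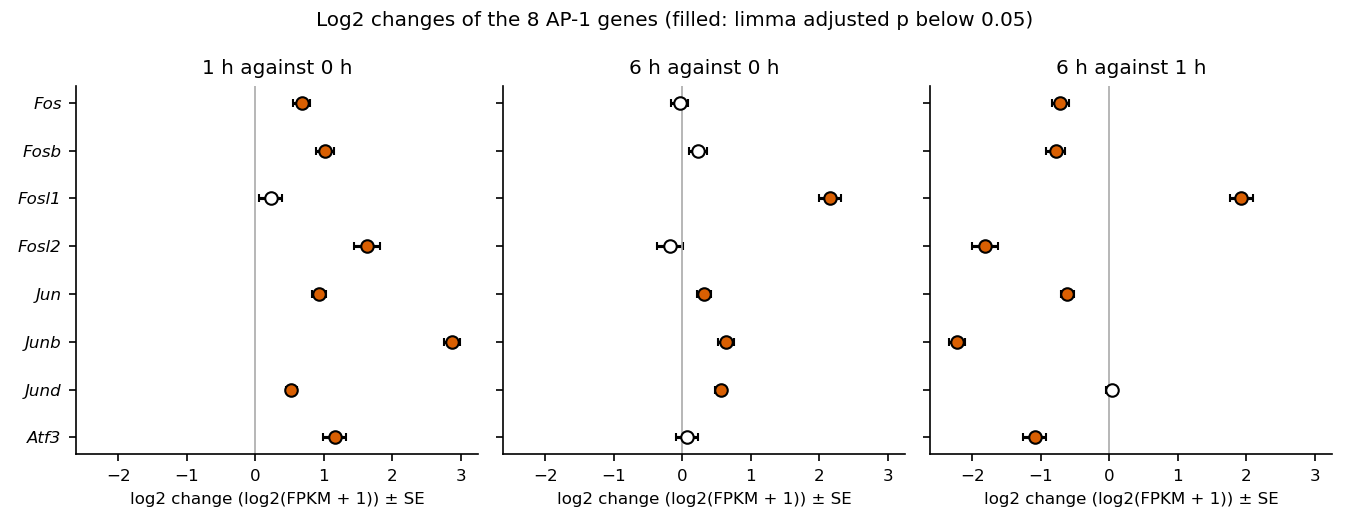
Log2 change ± SE (horizontal axis, log2(FPKM + 1) scale) of the 8 genes in the 3 comparisons; filled points had a limma adjusted p below 0.05. At 1 h all but *Fosl1* are filled, from 0.53 for *Jund* to 2.87 for *Junb*; for 6 h against 1 h *Fosl1* stands at 1.93 and 6 members lie at −0.61 or below.

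The 1 h libraries differed among themselves by gene. Replicate 2 was the lowest of the 3 for *Junb* and *Fosl2* and the highest for *Fos*, *Fosb*, *Fosl1* and *Atf3*. This was not limited to the members. Replicate 2 was also lowest for genes such as *Plk2* (190.5, 121 and 198 FPKM in replicates 1, 2 and 3), *Enc1* (630, 341 and 636) and *Egr1* (630, 516 and 674). It was highest for others such as *Myc* (23.1, 35.4 and 19.8), and the cause was not tested. Without replicate 2, 7 members were still called higher at 1 h. Heat-shock genes, which can rise with handling, were also higher at 1 h: 8 of 11 were higher than at 0 h, the other 3 did not pass (72.7% against 9.68% of all tested genes), and their summed FPKM was 1772 to 2066 at 1 h against 1145 to 1324 at 0 h. The count was 3 under quantile normalization and 4 without 1 h replicate 3. The called heat-shock genes with the largest rise at 1 h were *Bag3* (1.28, adjusted p = 0.000188), *Hsph1* (0.87, adjusted p = 0.0138) and *Dnaja1* (0.82, adjusted p = 0.000513). *Hsph1* was not called without 1 h replicate 3 (adjusted p = 0.0589). The strongly heat-inducible *Hspa1a* (12.9 ± 3.39 FPKM at 1 h against 8.05 ± 4.73 at 0 h, log2 change 0.77, adjusted p = 0.216) and *Hspa1b* (24.6 ± 5.40 at 1 h against 13.8 ± 6.47 at 0 h, log2 change 0.89, adjusted p = 0.0815), chosen after their values were seen, did not pass, although their log2 changes were above the median of the list (0.71). Of the 11 heat-shock genes, 6 (54.5%) were higher at 6 h than at 0 h and 0 lower, against 28.8% and 27.9% of all tested genes. Their summed FPKM at 6 h was 1538 to 1675. Compared with 1 h, 2 were higher and 2 lower at 6 h (18.2% each), against 26.7% and 26.9% of all tested genes. The higher count was 1 without 1 h replicate 1, 1 h replicate 3, 6 h replicate 2 or 6 h replicate 3. The lower count was 1 without 1 h replicate 3 or 6 h replicate 1. It was 4 from only the 2 groups compared or without 0 h replicate 1. The part of the heat-shock genes in the AP-1 values was not tested. At 6 h, 7 of 7 oocyte markers were higher than at 0 h (summed FPKM 66.0 to 98.6 against 38.1 to 56.6) and 8 of 10 granulosa markers were lower. Of all tested genes 28.8% were called higher and 27.9% lower. Of the tested theca and stroma markers 3 of 8 were lower (most of all *Cyp17a1*, by a log2 change of −2.42). So were 2 of 4 erythroid, 1 of 4 leukocyte and 1 of 6 surface epithelium markers, and 2 of 5 endothelial markers were higher (*Kdr* 0.73, *Cdh5* 0.48). The erythroid count was 1 in many settings, among them no trend and a robust trend in limma. The leukocyte count was 0 without 0 h replicate 2 or 6 h replicate 1. Without 0 h replicate 3 the theca and stroma count was 6, and without 6 h replicate 3 the endothelial count was 4. The part of these markers' cells in the 6 h values was not tested.

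The AP-1 messenger RNA pool differed in size and make-up between the times. Summed over the 8 members it was 754 ± 81.2 FPKM in the 0 h group, 2001 ± 191 in the 1 h group and 868 ± 60.2 in the 6 h group (SD, n = 3), with no overlap between 1 h and the other times. *Junb* made up 9.59 to 11.1% of the sum at 0 h, 26.4 to 30.3% at 1 h and 13.7 to 14.4% at 6 h. *Fosl2* held 19.4 to 22.7%, 18.9 to 28.3% and 15.4 to 16.5% at 0, 1 and 6 h. The share of *Fos* was 22.7 to 25.4% at 0 h, 12.5 to 17.5% at 1 h and 19.1 to 21.7% at 6 h, lowest at 1 h although its own level was highest then. *Jun* had 21.3 to 22.8% at 0 h, 13.8 to 18.6% at 1 h and 23.0 to 25.6% at 6 h. The 3 Jun genes together held 39.2 to 41.3% at 0 h, 47.3 to 50.4% at 1 h and 45.7 to 51.2% at 6 h, so that both later groups lay above 0 h.

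The order of levels also differed between the times. At 0 h *Fos*, *Jun* and *Fosl2* led, with ranges that overlapped between neighbours (181 ± 29.4, 167 ± 22.6 and 156 ± 14.1 FPKM), followed without overlap by *Fosb*, *Junb*, *Jund*, *Atf3* and *Fosl1*. At 1 h *Junb* (579 ± 94.2 FPKM) and *Fosl2* (499.6 ± 141) came first and overlapped. *Jun* (318 ± 24.5) and *Fos* (288 ± 23.8) followed and also overlapped, ahead of *Fosb* (218 ± 12.0). At 6 h the order was *Jun* (208 ± 3.20 FPKM), *Fos* (176 ± 22.2), *Fosl2* (138 ± 13.4), *Fosb* (127 ± 19.8) and *Junb* (122 ± 9.47), where *Fosl2*, *Fosb* and *Junb* overlapped with their neighbours. *Fosl1* then stood above *Atf3*, the reverse of 0 h and 1 h. At 1 h *Junb* ranked 98 and *Fosl2* 118 by level among the 14535 tested genes.

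**Figure D3:**
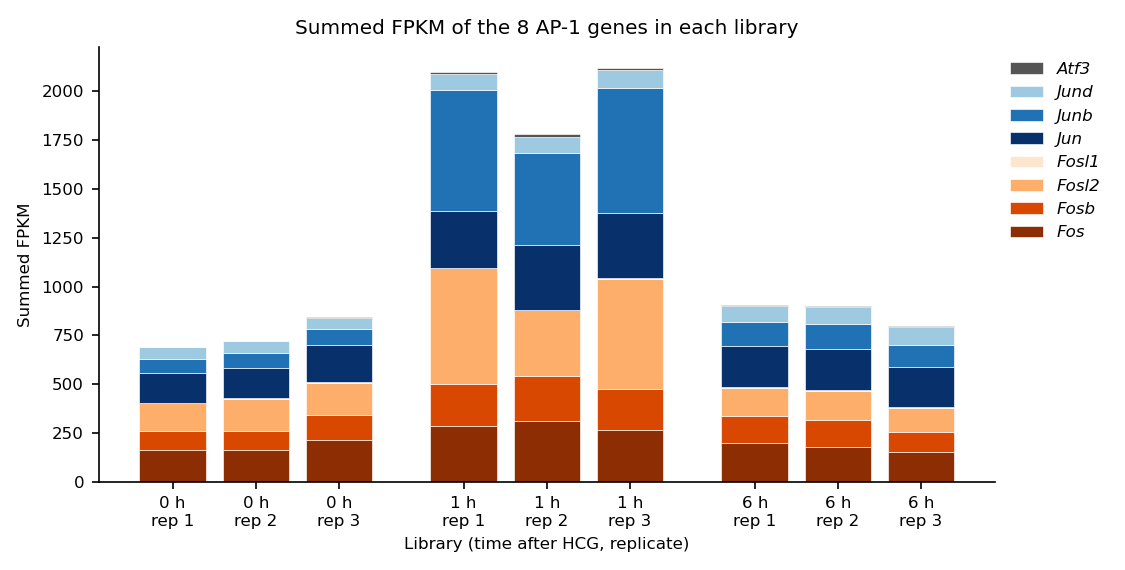
Summed FPKM of the 8 AP-1 genes in each of the 9 libraries (vertical axis, from 0), split by gene, with Fos genes in orange and brown, Jun genes in blue and *Atf3* in grey. The sum is 692 to 846 at 0 h, 1781 to 2122 at 1 h and 799 to 904 at 6 h, and the *Junb* and *Fosl2* segments widen at 1 h.

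Ratios between related members were taken within each library. *Junb* over *Jun* was 2.15, 1.43 and 1.92 in the 1 h libraries, against 0.466, 0.521 and 0.420 in the 0 h libraries. It was 0.587, 0.627 and 0.547 at 6 h, above every 0 h library and below every 1 h library. *Fosl2* over *Fos* was 2.07, 1.08 and 2.14 at 1 h, against 0.858, 1.00 and 0.766 at 0 h, so that replicate 2 at 1 h lay only just above the highest 0 h value. *Fosb* over *Fos* was 0.747, 0.741 and 0.788 at 1 h, against 0.603, 0.590 and 0.601 at 0 h, and 0.716, 0.766 and 0.686 at 6 h. *Jund* over *Jun* was lower at 1 h (0.275, 0.246 and 0.275) than at 0 h (0.392, 0.371 and 0.295). In 2-sided exact permutation tests of the log2 ratios, p was 0.10 for 9 of the 12 comparisons of these 4 ratios and 0.2 to 0.4 for the others. With 3 libraries against 3, 0.10 is the smallest p the test can give, and after Benjamini-Hochberg adjustment over 12 the lowest was 0.133.

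The genes whose course was most like that of each member were found by Pearson's r of log2(FPKM + 1) over the 9 libraries, as a description only, since these libraries fall into 3 times. *Junb* was followed most closely by the polo-like kinase gene *Plk2* (r = 0.998), the prostaglandin receptor gene *Ptger4* (0.998) and the elongation factor gene *Ell2* (0.997). *Fosl2* was nearest to *Enc1* (0.992), *Impact* (0.990) and the mitochondrial import gene *Tomm20* (0.990). For *Jun* they were the endothelin gene *Edn1* (0.988), the kinase gene *Hipk3* (0.977) and the zinc finger factor gene *Egr1* (0.971), and for *Fosb* *Egr2* (0.966), *Ppp1r9a* (0.966) and *Egr1* (0.954). *Fos* was nearest to *Fmn2* (0.955), *Agtpbp1* (0.955) and *Trp53inp1* (0.954), and *Atf3* to *Alkbh3* (0.973), *Egr2* (0.950) and *Sox4* (0.949). *Fosl1* was nearest to *Rab20*, *Phf20l1* and *Pip4k2a* (0.993 each), and *Jund* to the RNA-binding protein gene *Khdrbs1* (0.984), the Notch target *Heyl* (0.981) and *Sema6d* (0.980). *Enc1* measured 536 ± 168 FPKM at 1 h against 87.1 ± 7.17 at 0 h, and *Plk2* 169.9 ± 42.4 FPKM at 1 h against 5.55 ± 0.456 at 0 h.

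Among 15 other immediate-early genes, 14 (93.3%) were higher at 1 h than at 0 h, against 9.68% of all tested genes, with a median log2 change of 2.23. *Egr1* rose by 2.23 (adjusted p = 3.11e-06), to 606.5 ± 81.8 FPKM at 1 h, against 128 ± 16.1 at 0 h, and *Ier2* rose by 1.16, to 253 ± 9.31 FPKM at 1 h, against 113 ± 8.51 at 0 h. *Myc*, a growth regulator also called immediate-early, did not pass, at 26.1 ± 8.21 FPKM at 1 h and 25.3 ± 2.93 at 0 h (0.01, adjusted p = 0.986). At 6 h, 10 of the 15 (66.7%) were lower than at 1 h and 3 (20.0%) higher, against 26.9% and 26.7% of all tested genes, and 12 were higher than at 0 h, against 28.8%, and 1 lower (*Myc*, −0.63). *Myc* missed the threshold for that comparison when 0 h replicate 2 was dropped (adjusted p = 0.052) and from the most abundant row alone (−0.57, adjusted p = 0.16).

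Other basic-zipper genes whose products can pair with Fos or Jun proteins were tested in 15 of 18 cases, since *Batf*, *Batf2* and *Batf3* averaged under 1 FPKM. At 1 h, 6 of 15 were higher, against 9.68% of all tested genes, and the other 9 did not pass, with a median of 0.23. The small Maf gene *Maff*, whose product lacks an activation domain, rose by 2.08 ± 0.13, to 12.7 ± 1.65 FPKM at 1 h, against 2.23 ± 0.242 at 0 h. *Mafk* rose by 1.10 and the stress-response gene *Atf4* by 0.80. At 6 h, 7 (46.7%) were higher than at 0 h and 2 (13.3%) lower, against 28.8% and 27.9% of all tested genes. *Nfe2*, which was not called, passed the filter only through its 6 h libraries. Without it, 7 of 14 were higher and 2 lower than at 0 h, and 4 higher and 6 lower than at 1 h. *Atf5* rose to 36.0 ± 2.66 FPKM at 6 h, against 12.7 ± 1.28 at 0 h (1.43). *Jdp2*, whose product represses AP-1, rose by 0.58 at 1 h and by 1.21 for 6 h against 0 h, to 4.36 ± 0.364 FPKM at 6 h, against 1.32 ± 0.291 at 0 h. *Nfe2l1* (−0.55) and *Atf2* (−0.44), a partner of c-Jun, were lower. Between 1 h and 6 h, 4 (26.7%) were higher, the same share as among all tested genes (26.7%), and 6 were lower, against 26.9%. Those higher were led by *Atf5* (1.21), *Jdp2* (0.63) and the antioxidant factor gene *Nfe2l2* (0.46), and those lower by *Maff* (−0.82), *Ddit3* (−0.54) and *Atf2* (−0.47). *Ddit3* lost its call when any of 3 libraries was dropped, namely 1 h replicate 1 (adjusted p = 0.0503), 6 h replicate 1 (0.0594) and 6 h replicate 3 (0.0503), and those of *Maff* (0.0819) and *Atf2* (0.155) ended from the most abundant row alone.

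Of 24 genes for kinases and factors that act on Fos and Jun, 23 were tested. At 1 h, 3 (13.0%) were higher and 1 (4.3%) lower, against 9.68% and 5.98% of all tested genes, with a median of 0.05: the ribosomal S6 kinase gene *Rps6ka2* (0.83), the JNK pathway kinase gene *Map3k1* (0.77) and *Elk4* (0.30), whose product is a partner of serum response factor, rose, and *Mkl2*, for a coactivator of that factor, was lower (−0.63). *Elk4* lost its call with FPKM scaled to the mean sum (adjusted p = 0.0966), under quantile normalization (0.095), and when 0 h replicate 1 (0.0546), 1 h replicate 1 (0.0554) or 1 h replicate 3 (0.0529) was dropped. At 6 h, 12 (52.2%) were higher than at 0 h and 6 (26.1%) lower, against 28.8% and 27.9% of all tested genes. *Map2k4*, which activates JNK, rose to 49.5 ± 1.01 FPKM at 6 h, against 20.3 ± 1.70 at 0 h (1.25), with *Rps6ka2* at 0.96 and the p38 kinase activator gene *Map2k3* at 0.91. *Map3k5* (−1.33), *Map2k6* (−1.15) and the JNK gene *Mapk9* (−0.78) were lower. Compared with 1 h, 7 (30.4%) were higher and 7 (30.4%) lower at 6 h, close to the 26.7% and 26.9% of all tested genes. Those higher were led by *Map2k4* (1.15), *Mkl2* (0.98) and *Map2k3* (0.86), and those lower by *Map3k5* (−1.40), *Map2k6* (−0.92) and *Rps6ka3* (−0.87).

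In the list of 9 genes for the turnover of Fos and Jun messenger RNA or protein, 3 (33.3%) were higher and 1 (11.1%) lower at 1 h, against 9.68% and 5.98% of all tested genes. All 3 that rose encode RNA-binding proteins that promote decay of short-lived messenger RNAs: *Zfp36l1* rose by 1.34, *Zfp36l2* by 0.98 and *Zfp36* by 0.53. The call of *Zfp36* at 1 h was lost with no filter on low values (adjusted p = 0.0525), with FPKM scaled to the mean sum (0.0966), under quantile normalization (0.207) and without 0 h replicate 1 (0.0945), 0 h replicate 2 (0.0652), 1 h replicate 1 (0.0784) or 1 h replicate 2 (0.0533). *Det1*, for a subunit of a ubiquitin ligase that acts on c-Jun, was lower (−0.53). At 6 h *Zfp36* measured 156 ± 17.9 FPKM, against 69.9 ± 6.43 at 0 h (1.15); *Zfp36l1* (1.27) and the ubiquitin ligase gene *Itch* (0.33) were higher, 33.3% of the list against 28.8% of all tested genes, and *Det1* (−0.54) and *Zfp36l2* (−0.27) lower, 22.2% against 27.9%. *Zfp36l2* missed the threshold there without a trend in limma (adjusted p = 0.0537), from the 6 h and 0 h libraries alone (0.0533), and when 0 h replicate 3 (0.111), 6 h replicate 1 (0.109) or 6 h replicate 2 (0.0787) was dropped. Between 1 h and 6 h, *Zfp36* (0.61) and *Itch* (0.23) were higher (22.2% against 26.7% of all tested genes) and *Zfp36l2* lower (−1.25; 11.1% against 26.9%); *Itch* was not called with 6 h replicate 2 dropped (adjusted p = 0.051).

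Genes commonly described as AP-1 targets were tested in 15 of 21 cases, the metalloproteinase genes *Mmp3*, *Mmp9*, *Mmp10* and *Mmp13* being among those that averaged under 1 FPKM. At 1 h, 4 (26.7%) were higher, against 9.68% of all tested genes, and 11 did not pass, with a median of 0.12: the cell cycle inhibitor gene *Cdkn1a* (0.96), the urokinase gene *Plau* (0.94), *Vegfa* (0.83) and *Bcl2l11* (0.62). At 6 h, 12 were higher than at 0 h and 1 lower, with a median of 1.51, beside 28.8% and 27.9% of all tested genes. *Il6* and *Plaur*, named for this reason after their values were seen, are among the 12 and passed the filter only through their 6 h libraries; without them 10 of 13 were higher and 1 lower, with a median of 1.51. *Spp1*, for osteopontin, rose to 394 ± 57.5 FPKM at 6 h, against 29.0 ± 15.0 at 0 h (3.87). The metallothionein gene *Mt2* rose to 654 ± 108 FPKM at 6 h, against 86.0 ± 15.8 at 0 h (2.92), and the metalloproteinase inhibitor gene *Timp1* to 261 ± 27.6 at 6 h, against 49.2 ± 14.9 at 0 h (2.42). *Hbegf* was lower (−1.46). Compared with 1 h, 11 were higher at 6 h (9 of 13 without *Il6* and *Plaur*), led by *Spp1* (3.99), *Mt2* (2.80) and *Timp1* (2.33), and 3 (20.0%) lower, against 26.7% and 26.9% of all tested genes, the lower being *Hbegf* (−1.05), *Bcl2l11* (−0.69) and *Vegfa* (−0.46). These genes answer to many other factors, and no binding was measured.

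**Figure D4:**
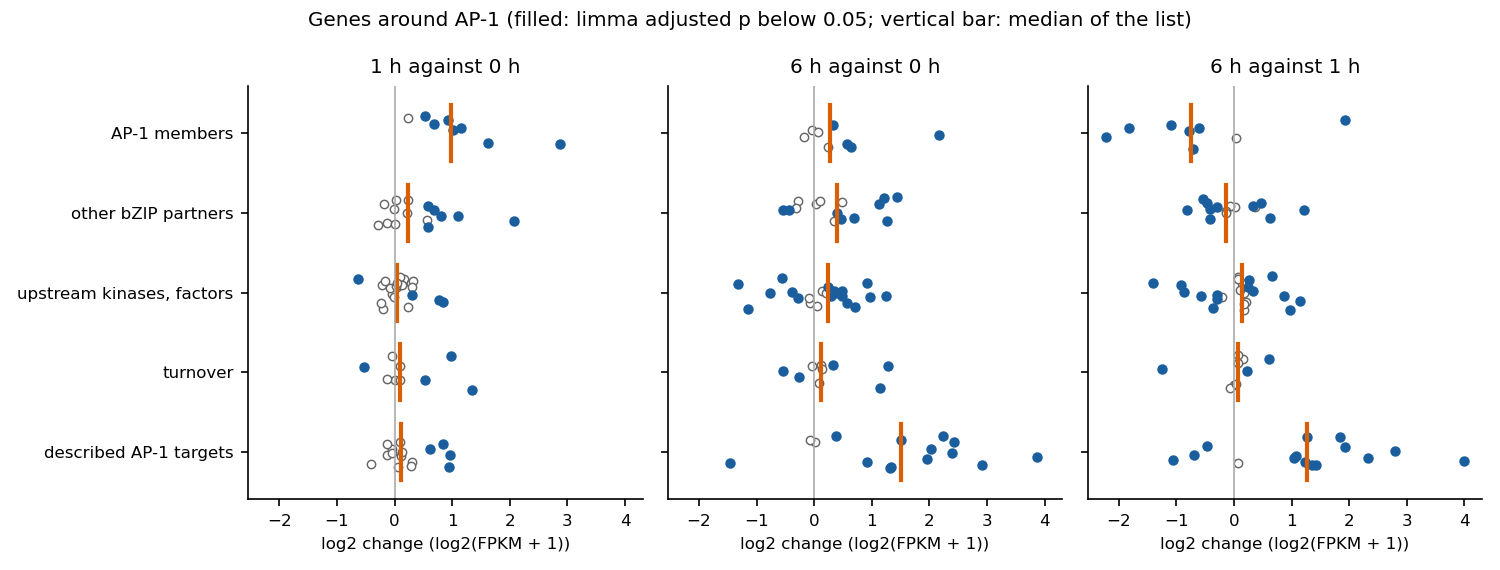
Log2 change (horizontal axis, log2(FPKM + 1) scale) of each tested gene in the AP-1 family and 4 lists around it, in the 3 comparisons; filled points had a limma adjusted p below 0.05, the orange bar is the median of a list, and the vertical spread of points has no meaning. The median of the AP-1 members is 0.97 at 1 h, and that of the described targets is 0.12 at 1 h and 1.51 for 6 h against 0 h.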

How the data were processed

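The authors deposited FPKM values, 1 table per library with 54759 rows, per the file headers. The submitters' processing notes name HISAT2 2.0.5 and the build mm10; how FPKM were then estimated, and with what annotation, is not given in the sources used here. Libraries were made with an Illumina TruSeq RNA kit, per the labels' protocols. Rows of a gene identifier were summed. A limma model (version 3.58.1, R 4.3.3, trended prior) of 3 group means was fitted to log2(FPKM + 1) of all 9 libraries. It covered 14535 genes that reached 1 FPKM in 3 libraries or more. A call is an adjusted p below 0.05, by Benjamini-Hochberg over all genes fitted. This scale understates the change of low genes. Gene coordinates are from GENCODE M21. The test was checked on simulated data. The changes set there were larger than several called here, and no gene as low as *Fosl1* at 0 h was changed. The check does not cover such calls.

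The members, lists and tests were chosen with earlier results of these data known. By rule, named genes are the 8 members, the 3 genes most like each, and *Egr1*, *Ier2* and *Myc*. Up to 3 called genes with the largest rise and 3 with the largest fall per list and comparison were added. *Bcl2l11* at 1 h, *Nfe2*, some marker genes and genes that averaged under 1 FPKM were named outside this rule. Predicted and clone-type names were left out of the likeness search. Overlapping loci were named after their values were seen.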

Additional observations from a re-analysis of the deposited data

How the results depend on the processing

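The limma calls, log2 changes and list counts were recomputed under 20 alternatives: pseudocounts of 0.1 and 0.5 FPKM, no filter or one of 5 FPKM, FPKM scaled to the mean sum, quantile normalization, the most abundant row alone, no trend or a robust trend in limma, only the libraries of the groups compared, the replicate block, and leaving out each library. Levels, shares, ratios, correlations and motif counts were not recomputed. Of the members, 7 were called higher at 1 h under all of these except quantile normalization, with 6. The count of 4 higher for 6 h against 0 h was 3 to 5. For 6 h against 1 h, 6 lower and 1 higher were found under every alternative. The 2276 genes called at 1 h became 3636 with FPKM scaled to the mean sum (1002 higher, 2634 lower, a shift of the median gene of −0.15). They became 1199 to 2824 without 1 library, with 2824 without 1 h replicate 2. The count was 1199 without 1 h replicate 3, 1305 without 1 h replicate 1, and 1424, 1499 and 1389 without 0 h replicates 1, 2 and 3. Changes that did not pass in the main setting turned sign as follows for 6 h against 0 h: *Fos* spanned −0.12 to 0.093 without 1 library, positive without 0 h or 6 h replicate 3, and *Atf3* was −0.0078 with FPKM scaled to the mean sum and −0.040 to 0.19 without 1 library, negative without 0 h replicate 1. *Jund* spanned −0.017 to 0.10 for 6 h against 1 h, negative without 1 h replicate 1 or 6 h replicate 3. *Myc* at 1 h was −0.15 with FPKM scaled to the mean sum, −0.079 under quantile normalization and −0.23 to 0.18 without 1 library; the causes were not tested. *Fosl1* could not be tested at 1 h from the 1 h and 0 h libraries alone, since it failed the filter there. After removal of the group means, r between libraries of different times was −0.08 to 0.15 for same-numbered pairs and −0.15 to 0.09 for the others. Whether the numbers mark a shared animal or batch cannot be told from these values. With the replicate block the members' counts were as in the main setting. There 1991, 8089 and 7632 genes were called for 1 h against 0 h, 6 h against 0 h and 6 h against 1 h. Depth is unknown, so the counting error of low values such as those of *Fosl1* could not be estimated.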
